A study of Rattus norvegicus with 40 samples.

Results

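Plasma miRNAs were compared between day 9 (D9) and day 2 (D2) after lateral fluid-percussion injury in the 9 rats that had a traumatic brain injury and did not develop epilepsy (TBI−). The comparison used 18 of the 40 libraries of the series, 9 per day, chosen by the group and day in their labels and paired by the rat number. All 558 miRNAs with at least 1 read in these libraries were tested, of 752 in the count matrix. The animals were adult male Sprague-Dawley rats, and a rat counted as TBI− when a month of video-EEG in the sixth month after the injury showed no epilepsy. Of the other 22 libraries, 14 came from 7 injured rats with epilepsy (TBI+) and 8 from 4 sham-operated rats, which had anesthesia and a craniotomy without the impact. Every rat was bled on both days from the tail vein into EDTA tubes, and RNA was taken from 200 µl of plasma. TBI− names an outcome seen months after the bleeds, so it describes no treatment given before them. Uninjured plasma of the same rats was not analysed here, and a change between the days is therefore not a change from a baseline.

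MicroRNAs are short RNAs that pair with messenger RNAs, mainly through the seed near their 5′ end, and lower the output of those messengers. Cells release them into the blood inside vesicles or bound to proteins, and damaged cells leak them. Plasma therefore holds a mixture from blood cells, vessel wall, liver, muscle and brain, and some miRNAs are made almost entirely in 1 of these tissues. In such a mixture, fewer contributing cells and less miRNA released per cell cannot be told apart.

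The mature sequences of the miRNAs that carry the comparison are printed 5′ to 3′ from RefSeq (GRCr8), which held a mature sequence for 509 of the 558 tested miRNAs. Bases 2 to 8, the seed, are in capitals. The first set are miRNAs of neurons, of muscle and of vessel wall smooth muscle that were lower on D9. miR-132-3p and miR-212-3p share 1 seed, and the 3p arms of the miR-129 hairpins share another.
miR-129-5p: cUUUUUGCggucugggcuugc
miR-129-1-3p: aAGCCCUUaccccaaaaag
miR-129-2-3p: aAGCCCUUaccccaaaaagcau
miR-323-3p: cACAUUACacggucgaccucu
miR-132-3p: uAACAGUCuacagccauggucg
miR-212-3p: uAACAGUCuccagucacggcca
miR-133a-5p: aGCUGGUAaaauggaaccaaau
miR-133b-3p: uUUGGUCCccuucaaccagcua
miR-145-5p: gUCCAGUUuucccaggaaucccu
miR-143-3p: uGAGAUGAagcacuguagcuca
The second set were higher on D9, and 3 of its groups share a seed: the miR-19 pair, the let-7 miRNAs with miR-98-5p, and the miR-34 pair.
miR-19a-3p: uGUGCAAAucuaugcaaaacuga
miR-19b-3p: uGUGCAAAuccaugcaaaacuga
miR-18a-5p: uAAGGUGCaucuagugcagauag
let-7a-5p: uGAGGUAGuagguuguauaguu
let-7f-5p: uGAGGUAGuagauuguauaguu
let-7i-5p: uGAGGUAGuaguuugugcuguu
miR-98-5p: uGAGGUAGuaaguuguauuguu
miR-34b-5p: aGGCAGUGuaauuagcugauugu
miR-34c-5p: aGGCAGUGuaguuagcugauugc
miR-142-3p: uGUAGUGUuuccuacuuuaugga

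The library totals, summed over all miRNAs, were 404542 to 2181856 reads on D2 and 332161 to 2864893 on D9, and depth did not differ between the days beyond the rat-to-rat spread (p = 0.824 by a two-sided exact sign-flip permutation test over 9 rats). Library numbers, given in the titles, form 3 runs, named A, B and C here, whose meaning is not stated in the sources. D2 libraries belonged to runs B (5) and C (4), and D9 libraries to runs A (5) and B (4), so day and run are partly confounded and only run B holds both days. Per the paper, plasma for sequencing was checked for hemolysis by eye and by hemoglobin absorbance, and the sequenced rats had samples of acceptable quality. The ratio of miR-451-5p, a red blood cell miRNA, to miR-23a-3p is a common index of hemolysis. On the log2 scale this index was −0.27 ± 0.74 on D2 and 1.26 ± 0.59 on D9 (SD, n = 9), and it was higher on D9 in 9 of 9 rats (p = 0.00391 by the same exact test, which cannot go lower with 9 rats). Of the 1.53 difference, 0.66 came from miR-451-5p relative to the library total (exact sign-flip permutation test, p = 0.0859) and the rest from a lower miR-23a-3p. The D9 library of rat 2 stood apart: it had the smallest total and the lowest median Spearman correlation with the other D9 libraries (0.904, against a median of 0.939 over the 9).

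In all, 100 of the 558 miRNAs (17.9%) were called differentially expressed between D2 and D9, at an adjusted p below 0.05 in edgeR's quasi-likelihood test with the rat as a block and Benjamini-Hochberg adjustment. Of these, 65 (11.6% of those tested) were lower on D9 and 35 (6.27%) were higher. The falls were also larger, with 51 called miRNAs at least 2-fold lower and 18 at least 2-fold higher. The median log2 fold change (log2FC, D9 over D2) of all tested miRNAs was −0.07. In this fit the spread was pooled over all miRNAs rather than estimated for each. The standard errors and the very small p-values below therefore do not measure a miRNA's own spread between rats. That spread is given by the ranges and by the counts of rats. Of the 65 lower miRNAs, 32 were lower in 9 of 9 rats, against 33 (5.91%) of all tested. Of the 35 higher miRNAs, 10 were higher in 9 of 9 rats, against 13 (2.33%) of all tested. The CPM (the read count relative to the library total) of the D2 and D9 libraries did not overlap for 10 miRNAs lower on D9 (1.79%) and 3 higher on D9 (0.538%). All 10 were called, while of the 3 only miR-18a-5p was, and miR-30e-5p (log2FC 0.60, edgeR adjusted p = 0.0511) and miR-30a-5p (0.44) were not. With the hemolysis index as a covariate, which itself differed between the days in every rat, 5 miRNAs were called, all lower on D9: miR-129-5p, miR-133a-5p, miR-133b-3p, miR-323-3p and miR-145-3p. With the library run as a term in these 18 libraries, a setting added once the data had been seen, 16 were called. Further settings with the hemolysis miRNA and the run are given at the end. What part either had in the changes below was not tested.

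**Figure D1:**
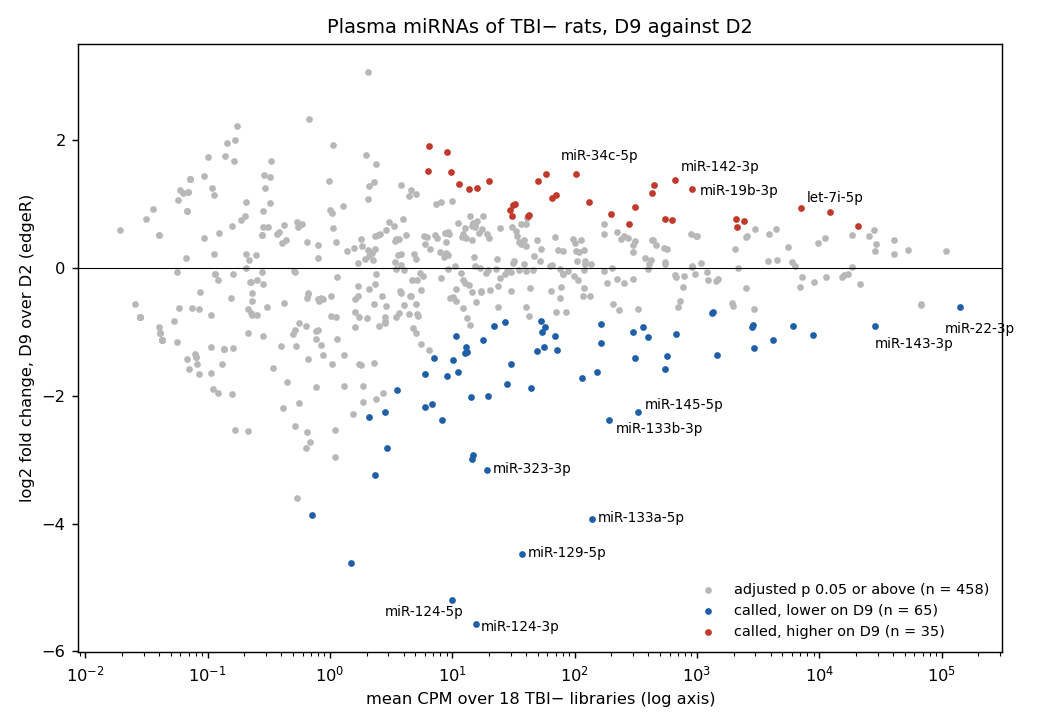
Log2 fold change from D2 to D9 (y axis, edgeR) against mean CPM (x axis, log scale) for the 558 tested miRNAs in 18 TBI− libraries, with the 65 called lower in blue and the 35 called higher in red. The falls reach further from 0 than the rises, and most of the largest falls are of miRNAs under 1000 CPM.

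Brain-enriched miRNAs were among the largest falls. The brain-enriched list and the later lists were chosen with earlier results of these data known. Their shares may therefore have been partly set in advance. The shares are given as description beside those of all tested, and are not read as a separate test of enrichment. Of 26 tested members of the list, 8 were lower (30.8%, against 11.6% of all tested), 1 was higher and 17 were not called. The 8 are not independent. They hold both arms of miR-124, miR-129-5p with both miR-129 3p entries, which count as 1 measurement, and the clustered miR-132-3p and miR-212-3p. The list's median log2FC was −0.73 (−0.60 with members absent on 1 day set to the 3-read bound). miR-124, which neurons make in great amount, was detected in every D2 library and nearly absent on D9. miR-124-3p lay at 11.1, 29.7 and 50.9 CPM on D2 (lowest, median and highest of 9 rats), and on D9 it had 0 reads in 7 rats and 3 reads in each of rats 4 and 9. The days did not overlap, and log2FC was −5.58 with a standard error (SE) of 0.51 (edgeR adjusted p = 1.1e-25). The size of this fall rests on 6 D9 reads against 363 on D2. All counts of both miR-124 arms were multiples of 3, so the 3 reads of a rat may have come from 1 sequenced read counted at 3 places. miR-124-5p fell in the same 9 of 9 rats, from a median of 17.9 CPM to a median of 0 (log2FC −5.20, SE 0.57).

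miR-129-5p, a neuronal miRNA that acts at synapses, was measured more precisely. Its CPM was 34.9, 74.0 and 95.3 on D2 and 0, 2.25 and 12.4 on D9 (lowest, median, highest). The lowest D2 library lay above the highest D9 library, and the log2FC was −4.48 (SE 0.37, edgeR adjusted p = 6.4e-30). miR-129-1-3p (log2FC −2.99) and miR-129-2-3p (−2.93) had counts that differed by 1.60% in all, share nearly all of their sequence and count as 1 measurement. They were lower in 8 of 9 rats, and rat 2, at 5.37 CPM on D2, was the exception.

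The activity-regulated pair of 1 hairpin cluster, miR-212-3p and miR-132-3p, fell less. miR-212-3p was at 31.7, 44.3 and 61.8 CPM on D2 and at 3.01, 16.6 and 28.7 CPM on D9, with no overlap (log2FC −1.50, SE 0.31, edgeR adjusted p = 3.9e-05). miR-132-3p was at 44.5, 75.2 and 95.3 CPM on D2 and at 12.2, 38.7 and 67.5 CPM on D9 (log2FC −0.99, SE 0.29, edgeR adjusted p = 0.00547). Its days overlapped, although each rat was lower on D9. miR-153-3p, a regulator of synaptic release proteins, had a log2FC of −2.13 on few reads (median 10.6 CPM on D2 and 2.04 on D9). The member of the list that rose was miR-383-5p, with a log2FC of 0.91 (edgeR adjusted p = 0.0348), and that call was lost when any of rats 2, 3, 5, 6 or 8 was left out. The summed CPM of the whole list did not follow these falls, since it ran from 4440 to 9126 on D2 and from 4148 to 10515 on D9 and is carried by abundant members that were not called. miR-9a-3p, another miRNA typical of brain, was listed at 0 in all 40 libraries. Such a 0 in every library, here and for the miRNAs named below, can be a failure to assign reads and was not read as absence from plasma.

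The Dlk1-Dio3 locus is an imprinted region whose maternal copy makes a long series of miRNAs, many of them strong in neurons. Of 55 tested members of the list drawn from this locus, 8 were lower, 2 were higher and 45 were not called. The share lower, 14.5%, was near the 11.6% of all tested, and the share called, 18.2%, near 17.9%. The list does not hold every miRNA of the locus. miR-667-3p, among the miR-379 and miR-410 hairpins but not on the list, was also called lower (log2FC −1.33, edgeR adjusted p = 0.00534). The median log2FC of the list was −0.52 (−0.24 with the bounds). On the list, miR-323-3p had the lowest p: it was at 5.37, 32.1 and 59.6 CPM on D2 and at 0, 3.01 and 12.4 CPM on D9 (log2FC −3.16, SE 0.39, edgeR adjusted p = 2.2e-14). Every rat was lower on D9, and the days overlapped through rat 2, which had the lowest D2 value. miR-668 fell from a median of 29.6 to 8.64 CPM, miR-369-3p with a log2FC of −1.69, miR-136-3p with −1.23 and miR-433-3p with −1.23. miR-127-3p, the most abundant of the called members, went from a median of 550.3 CPM to 179.1 CPM (log2FC −1.08, SE 0.26, edgeR adjusted p = 0.000627) and was lower in 8 of 9 rats. miR-300-3p and miR-485-5p were also called lower, with log2FC of −0.83 and −2.33, and these calls were lost without any of rats 3, 6 or 8 and of rats 1, 5, 6, 7, 8 or 9. That of miR-433-3p was lost without rat 1. The exceptions were miR-540-3p and miR-541-5p, which rose from medians of 2.02 and 5.37 CPM to 7.73 and 14.9 CPM. miR-434-3p was listed at 0 in all 40 libraries.

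Muscle miRNAs were lower on D9 too. Of 8 tested members of the skeletal and heart muscle list, 3 were lower (37.5%, against 11.6% of all tested) and none was higher. The median log2FC was −1.46 (−0.9995 with the bounds). Their summed level was 286.0 to 973.9 CPM on D2 and 47.7 to 225.8 CPM on D9, so the days did not overlap. miR-133a-5p, of a family made in skeletal and heart muscle, was at 130.2, 198.3 and 475.0 CPM on D2 and at 2.58, 12.4 and 174.6 CPM on D9 (log2FC −3.93, SE 0.34, edgeR adjusted p = 1.1e-28). It was lower in 8 rats, whereas in rat 2 it was at 174.6 CPM on D9 and higher than on D2. miR-133b-3p was lower in 9 of 9 rats, from 135.6, 308.5 and 581.0 CPM to 36.8, 48.5 and 149.3 CPM (log2FC −2.38, SE 0.28). miR-208b-3p, encoded in a heart and slow-muscle myosin gene, had a log2FC of −1.41, and the call was lost without any of rats 2, 5, 6, 7 or 9 (log2FC −1.76 to −0.86 over the 9 fits that left out a rat). The defining muscle miRNAs miR-1-3p and miR-133a-3p were listed at 0 in all 40 libraries, and miR-206-3p had 3 reads in the 18, so the list was measured without its main members.

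Of 15 tested miRNAs of endothelium and vessel wall, 6 were lower (40%, against 11.6% of all tested) and 1 was higher, with a median log2FC of −0.57. miR-145-5p, which keeps smooth muscle contractile, was at 451.5, 494.2 and 721.9 CPM on D2 and at 69.2, 117.4 and 207.2 CPM on D9. No D9 library reached the lowest D2 library (log2FC −2.26, SE 0.27, edgeR adjusted p = 1.4e-14). The other arm of its hairpin, miR-145-3p, had a log2FC of −1.62, and miR-143-3p, from the same cluster, had a log2FC of −0.90 (SE 0.23). miR-10a-3p (log2FC −1.88) fell without overlap between the days. miR-10b-3p (−1.12) and miR-100-5p (−0.69) were called with overlapping days. They lost the call without any of rats 5 or 7 and of rats 1, 3, 5, 6 or 7. Counts of miR-100-5p differed by 1.81% from those of miR-99a-5p, which is not on the list (log2FC −0.70), so they could not be told apart. The abundant 5p arms miR-10a-5p and miR-10b-5p were not called (log2FC −0.57 each). Their counts differed by 0.33%, and they count as 1 measurement. The riser was miR-126a-3p, the main endothelial miRNA, with a log2FC of 0.76 (edgeR adjusted p = 0.0204), and it was not called without rat 2, 3 or 8.

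**Figure D2:**
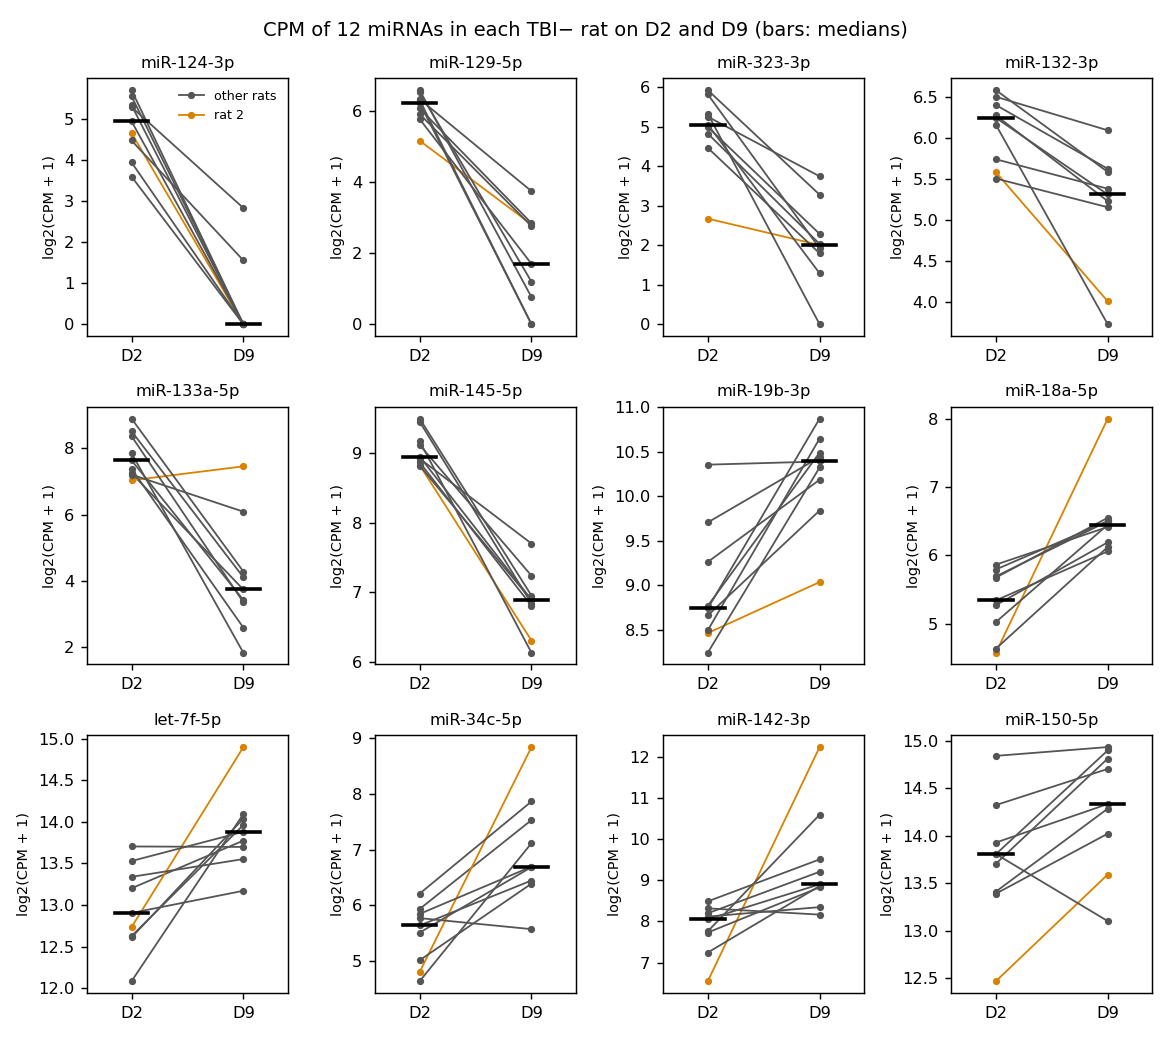
CPM of 12 miRNAs on D2 and D9 as log2(CPM + 1) (y axis of each panel), 1 line per TBI− rat, rat 2 in orange and black bars at the medians. The lines of miR-124-3p, miR-129-5p and miR-145-5p all fall with no overlap between the days, those of miR-18a-5p all rise, and miR-150-5p, which was not called, has overlapping days.

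The miRNAs that rose were led by the miR-17-92 family, which cells make while they proliferate and which is abundant in blood cells. Of 23 tested members of the clusters and their paralogs, 10 were higher (43.5%, against 6.27% of all tested), none was lower and 13 were not called. The median log2FC was 0.69. miR-19b-3p was at 301.6, 426.4 and 1310 CPM on D2 and at 523.8, 1343 and 1876 CPM on D9 (log2FC 1.24, SE 0.26, edgeR adjusted p = 3.9e-05). It was higher in 9 of 9 rats, although the highest D2 library overlapped the D9 range, and miR-19a-3p followed it with a log2FC of 1.29 (SE 0.27). miR-18a-5p was at 22.8, 39.5 and 57.3 CPM on D2 and at 65.7, 86.4 and 255.9 CPM on D9, with no overlap (log2FC 1.14, SE 0.29, edgeR adjusted p = 0.000850). The top D9 value was that of rat 2. miR-18a-3p had a log2FC of 1.09, miR-20a-5p of 0.85, miR-19a-5p of 1.26, miR-17-1-3p of 1.00 and miR-106b-3p of 0.69. The largest rise of the family was that of miR-20b-3p (log2FC 1.82), on a median of 2.75 CPM on D2. miR-92a-3p, the most abundant member, was not called: its CPM was 98331 on D2 and 109308 on D9 at the median (log2FC 0.27, edgeR adjusted p = 0.534). The other arm of that hairpin, miR-92a-1-5p, had a log2FC of 0.83. The calls of miR-92a-1-5p and miR-106b-3p were lost without any of rats 2, 3, 5 or 8, and that of the first also without rat 6 and that of the second without rat 7 or 9.

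The let-7 miRNAs, which hold back cell growth genes and mark differentiated cells, were mostly higher where called. Of 19 tested let-7 and miR-98 members, 5 were higher (26.3%, against 6.27% of all tested) and 1 was lower (5.26%, against 11.6%). The median log2FC was 0.39. let-7f-5p was at 4342, 7668 and 13347 CPM on D2 and at 9227, 15084 and 30557 CPM on D9 (log2FC 0.88, SE 0.24, edgeR adjusted p = 0.00258). let-7i-5p rose in 9 of 9 rats (log2FC 0.94), let-7a-5p (0.65), let-7d-3p (0.74) and miR-98-5p (0.95) rose in 8 rats, and let-7e-3p was lower (−1.06). The call of let-7a-5p was lost without any of rats 2, 3, 5, 6 or 8 (log2FC 0.55 to 0.82), that of let-7e-3p without any of rats 1, 2, 3, 5, 6 or 7, and that of let-7d-3p without rat 9. The let-7 miRNAs differ by few bases, so reads may have been split among them.

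Blood cell miRNAs changed unevenly. Of 18 tested red blood cell members, 3 were higher (16.7%, against 6.27% of all tested) and 2 were lower (11.1%, against 11.6%). miR-144-3p, from the hairpin cluster of miR-451, rose with a log2FC of 1.17 and miR-16-3p with 1.35. miR-182 and miR-96-5p, of 1 hairpin cluster, fell with log2FC of −1.36 and −2.25, and the second call was lost without any of rats 1, 6, 7, 8 or 9. miR-182 was at 1302, 1809 and 3460 CPM on D2 and at 168.6, 858.1 and 1521 CPM on D9. Of 13 myeloid members 3 were higher (23.1%, against 6.27% of all tested). These were miR-142-3p (log2FC 1.37), which all blood lineages make, miR-147 (1.03), induced in activated macrophages, and miR-223-3p (0.64), the main neutrophil miRNA. miR-142-3p lay between 286.0 and 4802 CPM on D9, the top value was that of rat 2, and the median rose from 264.5 to 476.6 CPM. The neutrophil call was near the threshold (edgeR adjusted p = 0.0475) and was lost without any of rats 3, 5, 6, 8 or 9. None of the 11 lymphocyte members was called, and miR-150-5p, their typical marker, had a log2FC of 0.51 (edgeR adjusted p = 0.123, or DESeq2 adjusted p = 0.0493). Of 11 platelet members only miR-126a-3p, which the endothelial list also holds, was called (9.09%, against 17.9% of all tested).

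Other sources gave few calls, set here against 11.6% lower and 6.27% higher among all tested. The share lower was 12.5% in the liver list, 16.7% in the pancreas and pituitary list, 20% in the miR-23 list and 10% in the miR-322 list. The share higher was 12.5% in the epithelial list and 22.2% in the p53-linked and miR-30 lists. In the miR-29 list it was 20% in either direction. Each share rests on 1 or 2 called members. In the liver list 1 of 8 members was lower, miR-365-5p (log2FC −1.63, no overlap), and the main liver miRNA, miR-122-5p, was listed at 0 in all 40 libraries. miR-192-5p, of liver and gut, was not called (log2FC 0.29). Of 12 members of the pancreas and pituitary list, 2 were lower, miR-217-5p (log2FC −2.82) and miR-216a-3p. The latter had no read on D9 and at most 12.4 CPM on D2, and for both the counts were low. The miR-375 and miR-7 members of that list were not called. In the epithelial list, 1 of 8 was higher, miR-429 (log2FC 0.77), not called without any of rats 3, 4, 5 or 9. None of the 4 cartilage members was called, and miR-140-3p was at a median of 5899 CPM on D2 and 6251 on D9 (log2FC 0.03, SE 0.24). The p53-linked list had 2 of 9 higher, miR-34c-5p and miR-34b-5p. miR-34c-5p was at 23.8, 48.7 and 72.9 CPM on D2 and at 46.5, 102.4 and 457.6 CPM on D9 (log2FC 1.46, SE 0.29, edgeR adjusted p = 1.1e-05). It rose in 8 of 9 rats, most in rat 2, and kept its call without that rat, while miR-34b-5p (log2FC 1.23) lost it without any of rats 1, 2, 4, 5 or 8. The miR-29 list had miR-29b-3p lower (log2FC −1.01) and miR-29a-5p higher (1.53, not without any of rats 1, 4 or 8), the miR-30 list had miR-30c-1-3p (0.82) and miR-30c-2-3p (0.81) higher of 9, neither without rat 3, 6, 8 or 9, and the miR-23, miR-27 and miR-24 list had miR-23a-3p (−0.90) and miR-23b-3p (−0.93) lower, which could not be told apart by their counts. Of 10 members of the miR-322 and miR-503 list, miR-322-3p was lower (−1.03).

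The most abundant miRNA of the plasma was miR-22-3p, at 95722, 169795 and 279416 CPM on D2 and at 75572, 99560 and 191583 CPM on D9. It was lower in 8 of 9 rats, and its call was close to the threshold (log2FC −0.61, SE 0.23, edgeR adjusted p = 0.0395) and lost without any of rats 1, 2, 5, 6 or 7. The other arm, miR-22-5p, was lower in 9 of 9 rats without overlap (log2FC −1.72, SE 0.28). miR-152-3p and miR-148b-3p, which share a seed and target DNA methylation enzymes, fell with log2FC of −1.58 and −1.37. miR-103-3p and miR-107-3p, metabolic regulators with 1 seed, fell with −1.05 and −1.13. The rises of miR-488-3p (log2FC 1.48) and miR-298-5p (1.36) were largest in rat 2, and both calls held without it.

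**Figure D3:**
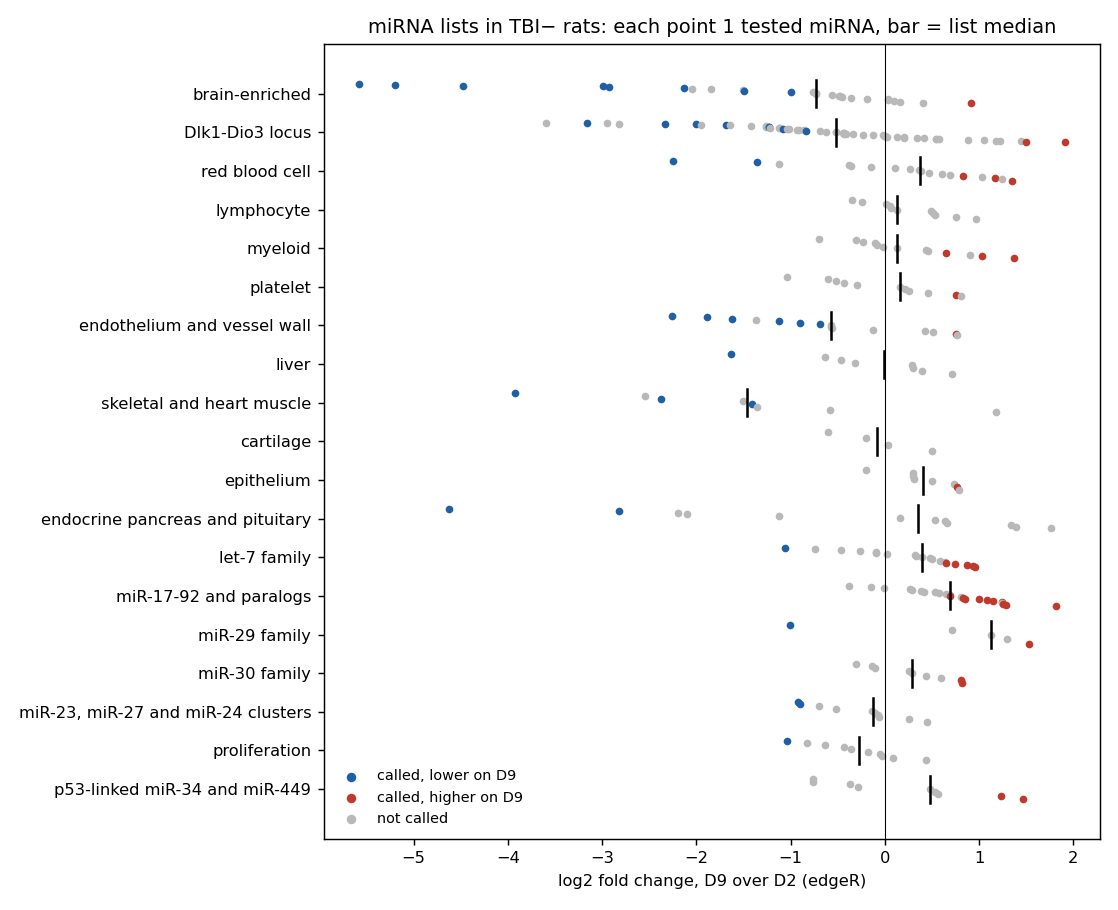
Log2 fold change from D2 to D9 (x axis, edgeR) of each tested miRNA in 19 lists of tissue markers and families, with called miRNAs coloured and black bars at the list medians. The brain, Dlk1-Dio3, muscle and vessel wall lists lie mostly left of 0, and the miR-17-92 and let-7 lists mostly right of it.

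Called miRNAs with a shared seed or hairpin had the same direction. Among tested miRNAs, 50 seeds were shared by 2 or more, and 12 of these had 2 or more called members. In all 12 the called members had 1 direction, including 4 of 7 tested miRNAs with the let-7 seed GAGGUAG, all higher. Of 187 hairpins with both arms tested, 60 had a called arm and 6 had both called, each time in the same direction. Among all tested miRNAs, 17.9% were called, 11.6% lower and 6.27% higher. How many such seeds and hairpins those shares alone would give was not worked out, so these counts are not read as an excess. By position in GRCr8, with neighbours taken as hairpins within 10 kb, the miR-17-92 hairpins held 12 tested miRNAs, of which 8 were higher. The miR-143 and miR-145 hairpins held 4 tested miRNAs, of which 3 were lower. The directions were mixed among the 42 tested miRNAs of the miR-379 and miR-410 hairpins, of which 1 was higher and 5 were lower. That share lower was near the 11.6% of all tested. The pairs of miR-29a with miR-29b hairpins and of let-7a with miR-100 hairpins each had 1 called higher and 1 called lower. Shared seeds, arms and neighbours are not independent, since similar sequences can share reads and neighbours can share a transcript.

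**Figure D4:**
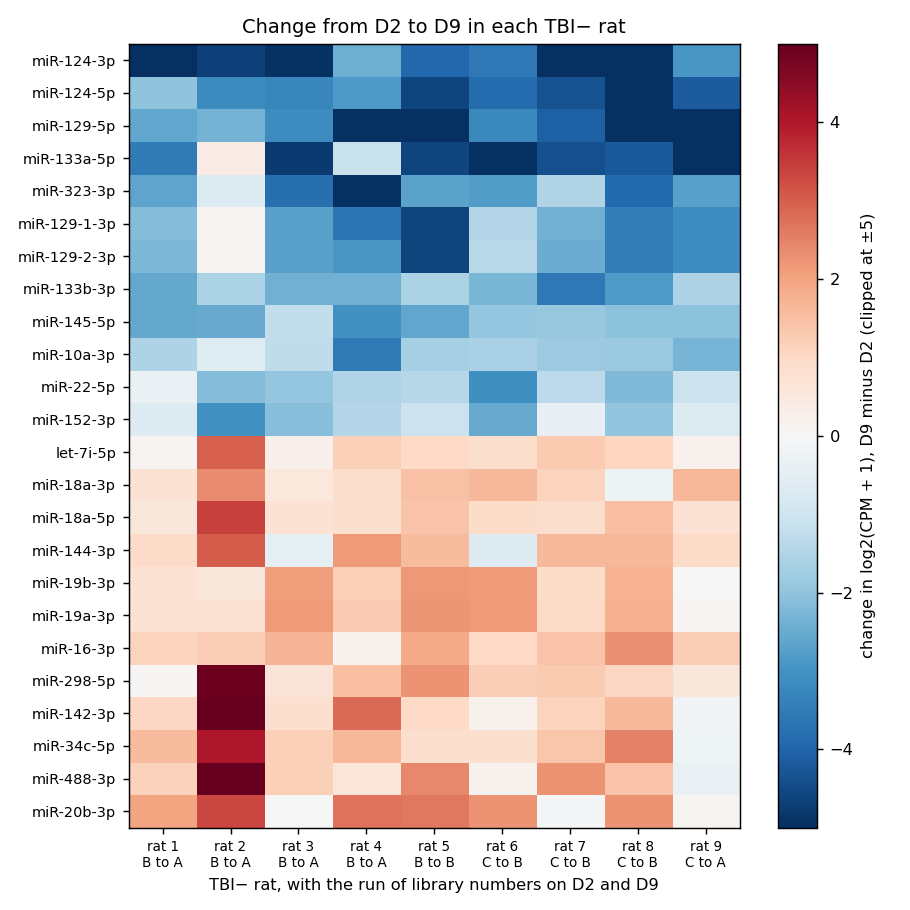
Change in log2(CPM + 1) from D2 to D9 (colour, blue lower and red higher on D9) in each of 9 TBI− rats (columns, with the run of library numbers on D2 and D9) for the 24 miRNAs with the lowest p, 12 in each direction (rows). Most rows keep 1 colour across the rats, and rat 2 has the deepest red for miR-488-3p and miR-142-3p and a pale red for miR-133a-5p.

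Rat 5 was the only rat with both libraries in run B. In it, miR-129-5p went from 78.4 to 0 CPM, and miR-124-3p went from 14.3 to 0 CPM. miR-19b-3p rose in the same rat from 359.4 to 1606 CPM. Of the 100 called miRNAs, 59 of 65 called lower and 34 of 35 called higher had that direction in rat 5. Among the exceptions were miR-369-3p (13.4 to 13.6 CPM), miR-96-5p (0 to 1.23 CPM) and miR-30c-2-3p (35.4 to 34.6 CPM). Rat 5 was itself among the rats that gave the calls, so this agreement was partly set in advance and is no separate check. The hemolysis index of rat 5 also rose, from −0.62 to 1.68. Across all rats, the fit on the 9 libraries of run B alone, 5 of D2 and 4 of D9 without the pairing, called 79 of 521 miRNAs, of which 56 were among the 100. These 9 libraries also helped to give the 100 calls, so the overlap was partly set in advance. In the run B fit, the log2FC was −4.61 for miR-129-5p and −2.20 for miR-145-5p, while miR-132-3p was at −0.31 and let-7d-3p at 0.16, both closer to 0 than their paired values and not called. Within run B the hemolysis index was also higher on D9, by 1.70 (two-sided exact permutation test without pairing, p = 0.0159).

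The change in TBI− rats was set against that in TBI+ and sham-operated rats in 1 edgeR fit of all 40 libraries with the rat as a block, where the difference between the day changes was tested. Against TBI+ rats, none of 581 miRNAs was called (0%) by edgeR, with 31 at an unadjusted p below 0.05. DESeq2 called 1, let-7d-3p. Among the falls, miR-129-5p had a log2FC of −4.44 in TBI− and −4.85 in TBI+ rats (difference 0.40, SE 0.59), and miR-145-5p of −2.23 and −2.64 (difference 0.41, SE 0.40). Among the other falls, miR-129-2-3p had a log2FC of −2.89 in TBI− and −4.46 in TBI+ rats (difference 1.58, SE 0.70, edgeR adjusted p = 0.735). The lowest p among all tested was that of let-7d-3p, and miR-19a-3p was also among the lowest. miR-19a-3p rose by 1.31 in TBI− and 0.25 in TBI+ rats (difference 1.06, SE 0.40, edgeR adjusted p = 0.599). let-7d-3p had 0.76 and −0.42 (difference 1.18, SE 0.36, edgeR adjusted p = 0.489), so neither passed the adjustment. Without rat 7 of the TBI+ group, 6 were called: miR-205, miR-18a-3p, miR-19a-3p, miR-19b-3p, let-7d-3p and miR-1249. A p that misses the threshold does not show equal change.

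Against sham-operated rats, 20 of 581 miRNAs (3.44%) were called, 16 with a higher and 4 with a lower change in TBI− rats. miR-129-5p fell by 4.44 in TBI− rats and by 0.75 in sham-operated rats (log2 difference −3.69, edgeR adjusted p = 0.0122). miR-127-3p (difference −1.61) and miR-22-3p (−1.17) had log2FC above 0 in sham-operated rats. miR-124-3p had 0 reads in all 8 sham libraries, where edgeR gave no call (adjusted p = 1.00) and DESeq2 did (adjusted p = 0.0135), and with an empty group neither estimate is a measure of size. let-7d-3p (difference 2.30, edgeR adjusted p = 6.9e-05), let-7f-5p (1.85), miR-222-3p (2.33), miR-1249 (2.88), miR-223-3p (1.68), miR-19a-3p (1.69) and miR-19b-3p (1.54) had the higher change in TBI− rats. Each of these had a log2FC below 0 in sham-operated rats, from −0.28 (miR-19b-3p) to −2.17 (miR-1249), with −1.54 for let-7d-3p and −1.80 for miR-222-3p. In TBI− rats, miR-222-3p (log2FC 0.52, edgeR adjusted p = 0.178) and miR-1249 (log2FC 0.71, edgeR adjusted p = 0.0974) were not called. The sham libraries of D9 were shallow, at 140636 to 358202 reads. After thinning all libraries to the smallest total 5 were called (let-7d-3p, let-7f-5p, miR-222-3p, miR-22-3p and miR-24-3p), and with a minimum count also 5 (let-7d-3p, miR-222-3p, miR-1249, miR-223-3p and miR-17-2-3p). The calls of miR-129-5p, miR-127-3p, miR-19a-3p and miR-19b-3p were lost in both, with adjusted p of 0.158, 0.0868, 0.127 and 0.255 in edgeR after thinning. The split of 16 to 4 turned to 6 to 10 with RLE size factors, and no miRNA was called with the library run as a term (20 at an unadjusted p below 0.05). The sham libraries were in other runs than the TBI− libraries on both days, and run and group cannot be told apart there. miR-133a-5p (log2FC −2.21), miR-145-5p (−2.07) and miR-152-3p (−1.78) were also called lower on D9 in sham-operated rats. The hemolysis index rose in those rats too, from −0.52 ± 0.66 to 1.13 ± 0.23 (SD, n = 4), as in TBI+ rats (−0.28 ± 0.55 to 1.30 ± 0.72, SD, n = 7).

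**Figure D5:**
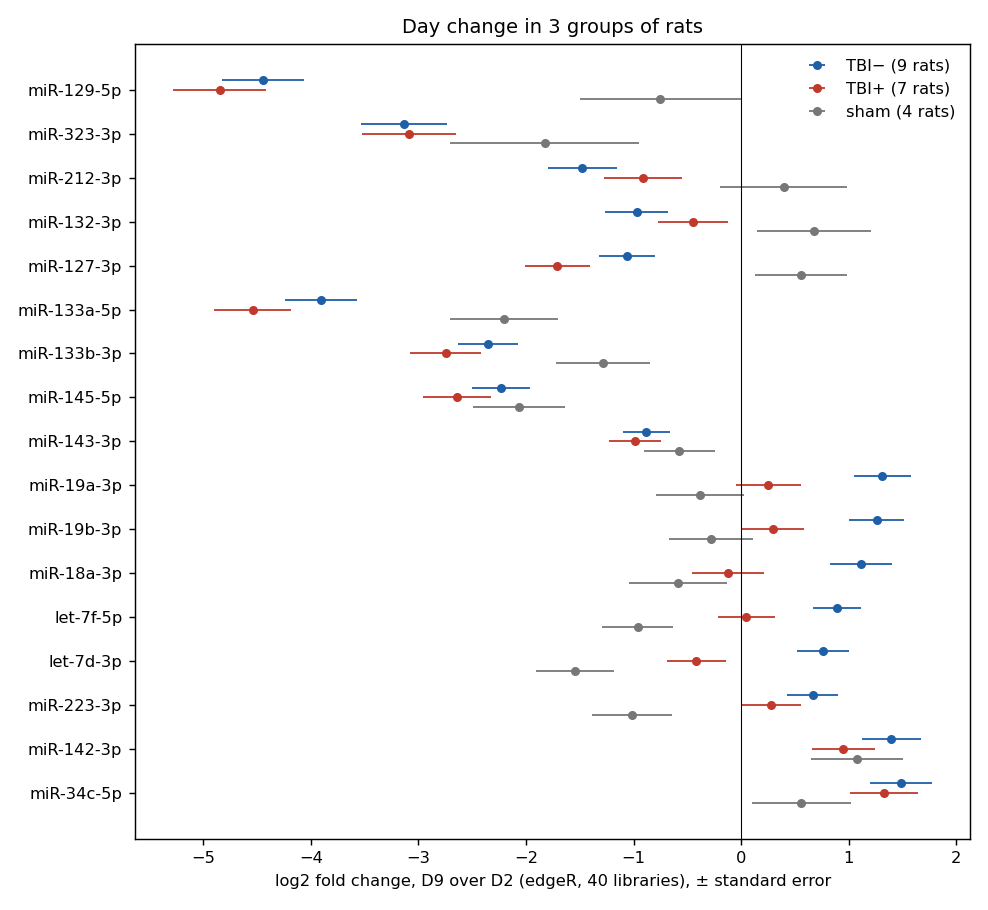
Log2 fold change from D2 to D9 with its standard error (x axis, edgeR, 40 libraries) of 17 miRNAs in TBI− (blue), TBI+ (red) and sham-operated rats (grey). miR-145-5p lies near −2 in all 3 groups, miR-129-5p is lowest in both injured groups, and miR-19a-3p, miR-19b-3p and let-7d-3p lie furthest right in TBI− rats.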

How the data were processed

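Small RNA from plasma was sequenced, and the authors trimmed, aligned and counted the reads per mature miRNA (Trimmomatic 0.36, Bowtie2 and featureCounts, per the submitters' processing notes). They deposited raw read counts for 752 miRNAs in 40 libraries. The members and lists were chosen with earlier results of these data known.

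D9 was compared with D2 over 18 TBI− libraries by edgeR 4.0.16 (R 4.3.3) with TMM normalization and the rat as a block, because both bleeds came from the same rat. MiRNAs without a read were left out, p-values were adjusted over 558, and the threshold was 0.05. The prior degrees of freedom came out infinite, so the quasi-likelihood spread was shared among the miRNAs. Deviations of the same rat's libraries correlated between −0.13 and 0.32. On simulated data, 131 of 200 miRNAs changed 4-fold were recovered with 0 false calls (99 of 101 with a mean of at least 10 reads). The simulated days did not differ in run or hemolysis, so it gives no rate of false calls from those. Named are the 12 with the lowest p in each direction, the 5 of highest mean, members of the lists that were called, the main marker miRNAs and those that differed from sham; miRNAs of shared seeds or settings were named after their values were seen. Alternatives were DESeq2 1.42.0, other scalings, filters, covariates and single rats left out. CPM used the library total, and a floor was 3 reads, counting error only. Reads carry no molecular identifiers.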

Additional observations from a re-analysis of the deposited data

Results flagged for a closer look

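Single rats lay far from the other 8 for 9 of the 90 changes examined by Dixon's test on log2(CPM + 1), where chance gives about 1 in 20. Rat 2 accounted for 5 of them, with the highest change for miR-488-3p (6.64, next 2.39), miR-298-5p (4.90, next 2.26), miR-18a-5p (3.43, next 1.49), let-7i-5p (2.97, next 1.29) and miR-20a-5p (2.41, next 1.19). Its D9 library also had the smallest total. The others were miR-153-3p in rat 1 (0.60, the only rise), miR-485-5p in rat 3 (0.00), miR-365-5p in rat 4 (−3.23) and miR-29b-3p in rat 6 (−2.49).

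The day change differed between TBI− and sham-operated rats by edgeR's test of the difference, Benjamini-Hochberg adjusted, for 13 named miRNAs. On the log2 scale the difference was 1.69 for miR-19a-3p, 1.54 for miR-19b-3p, 2.32 for miR-16-3p, 1.70 for miR-18a-3p, 1.68 for miR-223-3p, 1.27 for let-7a-5p, 1.85 for let-7f-5p, 2.30 for let-7d-3p, 2.88 for miR-1249 and 2.33 for miR-222-3p. It was −3.69 for miR-129-5p, −1.17 for miR-22-3p and −1.61 for miR-127-3p. None was called with the library run as a term.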

How the results depend on the processing

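Between 75 and 114 miRNAs were called under DESeq2 (114), no pairing block (36 higher, 76 lower), RLE factors, total count, miR-28-3p scaling (86), a minimum count, thinning (75) and all 40 libraries, and 83 to 107 with each rat left out. Without the block, 63 of 70 named calls were kept. The count fell to 5 with the hemolysis index as covariate, to 60 with the library run in 40 libraries, and, in settings chosen after the data were seen, to 16 with the run in 18 libraries and 66 with miR-451-5p as covariate. The hemolysis index was higher on D9 in every rat, and only run B held both days in the 18 libraries. Neither covariate was therefore independent of the day there, and the cause was not tested. Named log2FC changed sign with the hemolysis index for miR-142-3p (−0.043), miR-488-3p (−0.65), miR-298-5p (−0.33), miR-144-3p (−0.33), let-7i-5p (−0.20), miR-106b-3p (−0.25) and miR-17-1-3p (−0.24), and with the run in 18 libraries for miR-96-5p (2.93). Detected miRNAs per library differed by −21.3 on D9 (exact p = 0.0938), by −12.7 after thinning (exact p = 0.0156), and by −16.5 to −28.5 with each rat left out (exact p = 0.0234 at −28.5, without rat 3). The index based on miR-451-5p alone rose by 0.66 (exact p = 0.0859). Against TBI+, DESeq2 called 1, leaving out 1 rat gave 0 to 6, and edgeR otherwise 0. Against sham, the 20 calls became 15 without the pairing block, 16 with DESeq2, 5 with a minimum count, 5 after thinning, 0 with the run, and 6 (without sham rat 1) to 26 (without TBI− rat 4) with single rats left out, with 7 without TBI− rat 5 and 8 without TBI− rat 1. MiRNAs near 3 reads, miR-124 on D9 among them, carry little information on the size of a change.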

Other observations

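Several called miRNAs belong to no list. miR-490-3p, in a gene of a muscarinic receptor, was lower in 9 of 9 rats (log2FC −1.82, edgeR adjusted p = 8.4e-07), and miR-708-3p was too (−2.02). miR-384-5p, expressed in neurons, had a log2FC of −3.24 on a mean of 4.31 CPM on D2. miR-33-5p, which regulates cholesterol export, was higher in 8 rats (0.99), and miR-340-5p was higher in 9 of 9 (0.76). The Spearman correlation between a rat's own D2 and D9 libraries exceeded that between different rats by 0.00145, within the spread of other pairings (exact permutation test over all pairings, p = 0.223).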
